A study of Mus musculus with 42 samples.

Results

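The nucleus accumbens (NAc) of naive mice was compared with 4 other regions of the naive mouse brain: the ventral hippocampus (vHippo), the ventral tegmental area (VTA), the medial prefrontal cortex (mPFC) and the lateral hypothalamus (LH). The 3 naive NAc libraries were set against the mean of the 4 regions, each with 3 libraries and equal weight, so that 15 of the 42 libraries of the series entered. Naive mice had not been through chronic restraint stress (CRS), the treatment of the other arm of the series, but all mice had taken a forced swim test 2 days before the tissue was collected. The labels give the tissue as brain tissue, with no strain, sex, age or genotype. They do not say whether replicates are separate animals or whether libraries of different regions share mice, so p-values measure the spread between these libraries, which may be technical.

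The NAc is the ventral part of the striatum. Most of its neurons are GABAergic spiny projection neurons, which receive dopamine from the VTA and glutamate from the mPFC and the ventral hippocampus, and which send axons to the ventral pallidum, the LH and the midbrain. In spiny neurons of the direct pathway the D1 dopamine receptor raises cyclic AMP through the G protein Golf and adenylyl cyclase 5, and substance P and dynorphin are co-transmitters. In those of the indirect pathway the D2 receptor lowers cyclic AMP, an adenosine receptor raises it, and enkephalin is the co-transmitter.

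RNA with poly(A) tails was sequenced from each dissected region, and a whole-number read count and an FPKM value (fragments per kilobase of transcript, scaled to library depth) were deposited for each gene and library. Naive libraries held 53143878 to 81384893 counts, and the NAc libraries 53967230 to 62417348. Some libraries stood apart. Library NAc 1 held a summed 534 FPKM over 23 genes of cortical and hippocampal pyramidal neurons, against 137 in NAc 2 and 169 in NAc 3, while mPFC libraries held 654 to 981 and LH libraries 82.4 to 154. VTA 2 held 137 FPKM over 17 midbrain dopamine neuron genes (855 and 451 in VTA 1 and VTA 3) and 221 FPKM over the hypothalamic list (18.7 and 37.4 in the others), and LH 2 held 247 FPKM over the hypothalamic list where LH 1 and LH 3 held 1120 and 1520. mPFC 3 held 220 FPKM over the leptomeningeal list, against 15.8 and 15.7 in mPFC 1 and mPFC 2. VTA 2 also held 294 FPKM over 5 red blood cell genes, against 0.923 to 15.8 in the other naive libraries, and had the highest mitochondrial share of counts, at 14.7%. mPFC 2 had the lowest, at 5.22%, and ribosomal RNA took 6.998% of its counts, against 0.247% to 1.92% in the others. Counts below are therefore also given without NAc 1 where they change; a fit without NAc 1 and VTA 2 together was chosen after seeing the data.

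The 3 marker genes of the NAc, used to check the label, were high in all 3 NAc libraries. Penk (4:4133531-4138819, minus strand; all coordinates are GRCm38), which encodes the enkephalin precursor, was at 296, 342 and 482 FPKM in NAc 1, NAc 2 and NAc 3, and at 6.96 (lowest), 15 (median) and 58.4 FPKM (highest) over the 12 other libraries. Ppp1r1b (11:98348404-98357796, plus strand), which encodes DARPP-32, an inhibitor of protein phosphatase 1 that D1 receptor signalling activates, was at 225, 178 and 313 FPKM, against 5.14, 8.15 and 20.3 FPKM. Drd1 (13:54051183-54055705, minus strand), the D1 receptor, was at 35.8, 25.5 and 39.5 FPKM, against 0.209, 0.718 and 4.98 FPKM. For none of the 3 genes did an NAc library overlap a library of another region. On the log2 scale the mean difference from the 4 regions, with its standard error (SE), was 4.38 ± 0.30 for Penk (20.8-fold, adjusted p = 2e-06), 4.79 ± 0.19 for Ppp1r1b (27.7-fold, adjusted p = 1.6e-08) and 5.18 ± 0.25 for Drd1 (36.3-fold, adjusted p = 8.8e-08). The files do not say whether counting used strand, and Penk and Ppp1r1b each overlap an annotated antisense gene. In tissue, more cells of a type and more RNA per cell cannot be told apart, which holds for every difference below.

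Over all 22877 genes tested with edgeR's quasi-likelihood test (Benjamini-Hochberg adjusted p below 0.05), 1079 genes (4.72%) were higher and 405 (1.77%) lower in NAc than in the mean of the 4 regions. Of the calls 72.7% were therefore higher, 53.2% with DESeq2 and 59.5% without NAc 1. The median of all tested genes was 0.024 on the log2 scale. Leaving out NAc 3 lowered the counts to 416 and 60 genes, and leaving out NAc 1 gave 773 (3.21%) and 526 (2.19%). All 3 NAc libraries lay above all 12 others in depth-scaled counts for 494 genes (2.16%) and below them for 194 (0.848%). The contrast is a mean of 4 log2 differences, so a gene nearly absent from some regions can be called while another region holds more of it; that was so for 188 of the higher genes by mean FPKM. A stricter call, higher than each of the 4 regions at an adjusted p below 0.05, left 111 genes (0.485%), and 33 genes (0.144%) were lower than each. Without 1 library the 111 became 43 (NAc 3), 67 (mPFC 2), 72 (vHippo 1 or vHippo 2) or 73 (mPFC 1), and stayed within 1.5 times for every other library.

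**Figure D1:**
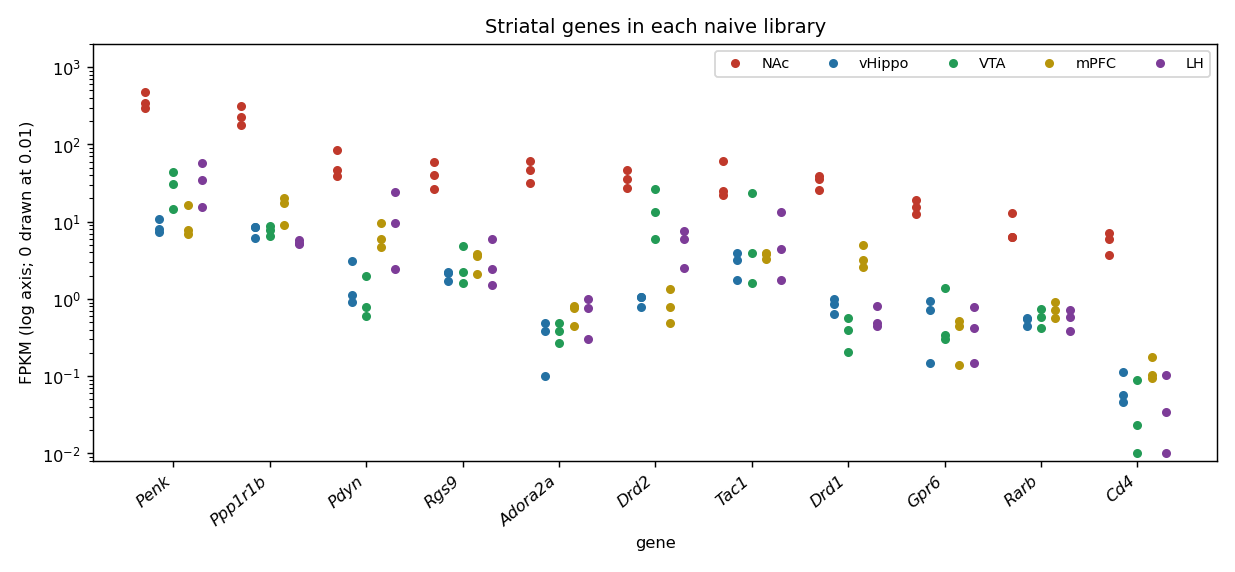
FPKM on a log axis of 11 genes in each of the 15 naive libraries, 1 point per library, coloured by region; a value of 0 is drawn at 0.01. The 3 NAc points lie above every other point for all genes shown except Tac1, where a VTA library at 23.3 FPKM reaches the NAc range.

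The signalling genes of spiny projection neurons stood far above the other regions. Of 35 listed and tested, 32 were higher (background 4.72%), none was lower, and 18 were higher than each of the 4 regions (background 0.485%); their median log2 difference was 2.27, against 0.024 over all tested genes. Without NAc 1, 29 were higher with a median of 2.22. Leaving out any library in turn gave 29 to 33 higher members. DESeq2 called 33 higher and 1 lower, and over all genes 1383 higher and 1216 lower. All gene lists were chosen with earlier results of these data known, so a share above the background is no independent test. Summed over the list, NAc libraries held 1504 to 2473 FPKM, and the highest library of any other region 636.

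Members that carry the dopamine signal to cyclic AMP were higher than each region. Gnal, the alpha subunit of Golf, was at 56.5, 50.4 and 70.1 FPKM in NAc and at 11.5, 15.3 and 23.4 FPKM (lowest, median, highest) elsewhere. Gng7, the gamma subunit that pairs with it, was at 140, 138 and 240 FPKM, against 6.31, 17.2 and 47.0 FPKM. Adcy5, the adenylyl cyclase of the striatum, was at 89.2, 76.9 and 118 FPKM, against 15.7, 18.6 and 25.6 FPKM. None of the 3 genes overlapped between NAc and the other regions. Their log2 differences were 1.85 ± 0.16 for Gnal (adjusted p = 1.1e-05), 3.17 ± 0.21 for Gng7 (1.5e-06) and 2.27 ± 0.12 for Adcy5 (9.7e-08). Gnal and Adcy5 overlap other annotated genes, so part of their counts may belong to those.

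Ric8b, Akap5, Prkar2b and Adcy8 are outside the list and were chosen after their values were seen. Ric8b, the chaperone of Golf, was 2.07-fold higher (log2 1.05 ± 0.099, adjusted p = 2.8e-05). Akap5, an anchor of protein kinase A, was 6.4-fold higher (2.68 ± 0.16, adjusted p = 5.5e-07). Prkar2b, a regulatory subunit of that kinase, was 2.53-fold higher (1.34 ± 0.16, adjusted p = 0.00015). Each passed the test against all 4 regions as well. Another cyclase, Adcy8, was at 0.995, 2.53 and 1.01 FPKM in NAc and at 2.50 to 4.71 FPKM elsewhere, with NAc 2 reaching into the range of the other regions, and was lower by the test (log2 -1.32 ± 0.23, adjusted p = 0.00344).

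Genes that end or shape the signal were also high. Pde10a, a cyclic nucleotide phosphodiesterase of the striatum, was at 55.3, 30 and 69.3 FPKM in NAc, and its highest value elsewhere was 7.14 FPKM (log2 3.42 ± 0.18, adjusted p = 1e-07). Pde1b, a calcium-dependent phosphodiesterase, was at 112, 92.4 and 154 FPKM, against at most 25.6 FPKM (2.58 ± 0.14, adjusted p = 1.3e-07). Rgs9, which speeds the turning off of G proteins, was at 40, 26.4 and 60.2 FPKM, against at most 5.90 FPKM (3.89 ± 0.33, adjusted p = 1.1e-05). For all 3 the groups did not overlap. Pde7b rose by 2.86 ± 0.19 on the log2 scale (adjusted p = 1.8e-06), and Pde1c, which is not on the list and was added after its value was seen, by 2.28 ± 0.18 (5.7e-06). Ptpn5, the striatal phosphatase STEP, rose less, by 1.43 ± 0.13 (adjusted p = 1.6e-05), with 45.9, 55.3 and 79.9 FPKM against at most 26.0.

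Other members above each of the 4 regions were Rasd2, a small GTPase (2.64 ± 0.25), Rasgrp2, an exchange factor for Rap (2.09 ± 0.21), Prkch, an isoform of protein kinase C (3.46 ± 0.26), and Arpp21, a regulated phosphoprotein (3.10 ± 0.19), with adjusted p between 4.7e-07 and 4e-05. Scn4b, a sodium channel beta subunit, was higher in the mean (3.86 ± 0.42, adjusted p = 9.3e-05) but not against VTA (1.35, adjusted p = 0.172), where the mean was 32 FPKM, and the groups overlapped. Muscarinic receptors of acetylcholine passed in fewer regions. Chrm1 (log2 1.97 ± 0.25, adjusted p = 0.00032) had a mean of 18 FPKM in NAc, 29.0 in vHippo and 21.8 in mPFC, and only the differences from VTA (4.79) and LH (4.16) passed the test. Chrm4 was at 17.8 FPKM in NAc, 11.3 in mPFC and 8.26 in vHippo (2.33 ± 0.32, adjusted p = 0.00054), and likewise passed only against VTA and LH, though its NAc libraries lay above all 12 others.

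The 3 members not called were Prkcd, Pcp4 and Cnr1. Prkcd, an isoform of protein kinase C, had a mean of 3.25 FPKM in NAc. Pcp4, a calmodulin-binding peptide, was at 154, 74.6 and 120 FPKM against 30.9 to 107 FPKM elsewhere (log2 0.99 ± 0.28, adjusted p = 0.0507); without NAc 2, VTA 2 or mPFC 2 it passed (0.0295, 0.0387 and 0.0242). Cnr1, the cannabinoid receptor, was at 17.8, 16.2 and 11.3 FPKM in NAc, within the range of the others, where vHippo had a mean of 52.1 and mPFC of 37.3 FPKM. Its mean difference was -0.77 ± 0.23 (adjusted p = 0.0629, but 0.0259 without LH 2 and 0.0414 without mPFC 3), and it was lower than in vHippo (-1.80, adjusted p = 0.00195) and mPFC (-1.36, adjusted p = 0.0154).

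**Figure D2:**
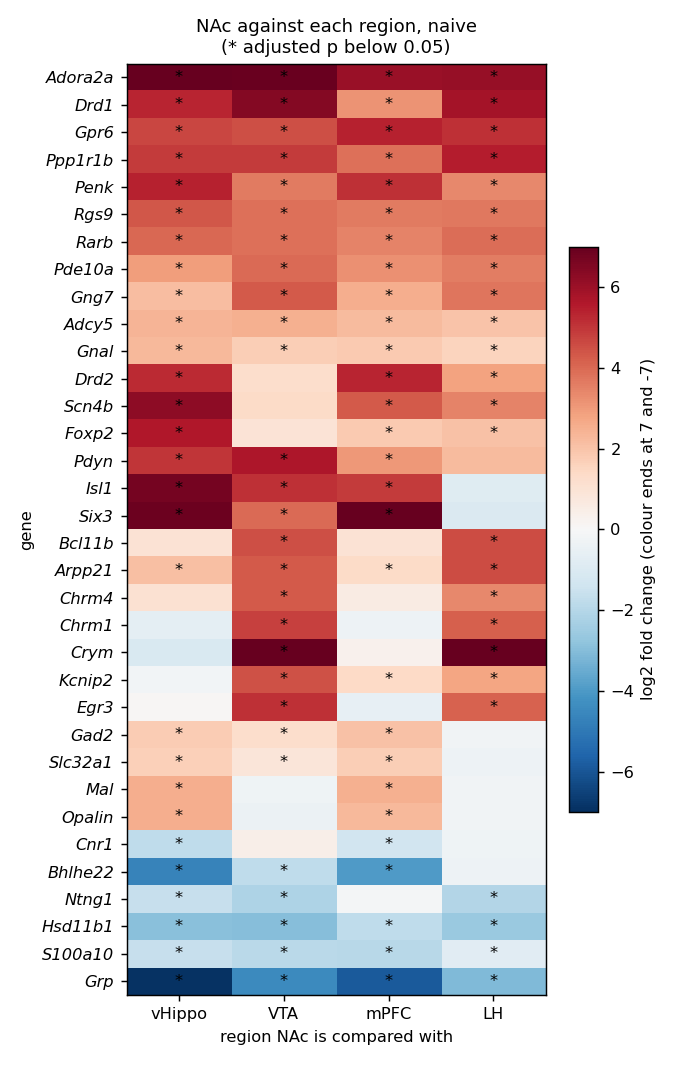
Log2 fold change of NAc against each of the 4 regions for 34 genes of the text (colour, with its ends at 7 and -7); a star marks an adjusted p below 0.05 (edgeR). The first 11 genes, Adora2a to Gnal, are called higher against all 4 regions, Chrm4, Chrm1, Crym and Egr3 against VTA and LH alone, Mal and Opalin against vHippo and mPFC alone, and Hsd11b1, S100a10 and Grp are called lower against all 4.

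Markers of both output pathways were present. Of 12 direct pathway genes, 7 were higher (background 4.72%) and none lower, with a median of 2.34. Of 11 indirect pathway genes in the table (Gucy1a3 was not among its symbols), 8 were higher and none lower, with a median of 3.18. Against each of the 4 regions, 1 direct and 5 indirect pathway genes were higher (background 0.485%); the difference between the lists was not tested. Without NAc 1 the counts were 7 and 8. Without NAc 3 they were 6 and 6. Drd2 was at 36.0, 27.5 and 47.1 FPKM in NAc, with 0.974 in vHippo, 0.873 in mPFC, 5.32 in LH and 15.2 in VTA as means (log2 3.65 ± 0.34, adjusted p = 2.7e-05). Every NAc library exceeded every other, but the highest VTA library held 26.5 FPKM, and the difference from VTA did not pass (1.23, adjusted p = 0.119). Dopamine neurons of the VTA carry this receptor as well, but their part in the VTA level was not tested.

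Adora2a (10:75316877-75334784, plus strand), the adenosine receptor of these neurons, was at 46.8, 31.8 and 61.0 FPKM in NAc and at 0.102, 0.468 and 0.999 FPKM elsewhere. With a log2 difference of 6.55 ± 0.32 (93.6-fold, adjusted p = 8.8e-08), its smallest difference was 6.06, from mPFC. Gpr6, an orphan receptor of indirect pathway neurons, was at 15.6, 12.6 and 18.9 FPKM, against 0.141, 0.432 and 1.38 FPKM (4.93 ± 0.47, adjusted p = 2.8e-05). Gpr52, another orphan receptor, was at 19.8, 19.7 and 31.1 FPKM, against at most 8.18 FPKM (3.18 ± 0.23, adjusted p = 2.7e-06). All 3 receptors passed against each region without overlap.

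On the direct pathway side, Slc35d3, a nucleotide sugar carrier linked to D1 receptor trafficking, was at 7.53, 5.54 and 11.9 FPKM, against at most 3.36 FPKM (3.96 ± 0.47, adjusted p = 0.00017); only the difference from LH did not pass (2.15, adjusted p = 0.0819). Tac1, the precursor of substance P, was at 24.8, 22.4 and 61.9 FPKM, and a VTA library reached 23.3 FPKM, so the groups overlapped. Its log2 difference was 2.80 ± 0.56 (adjusted p = 0.00829), and without NAc 3, its highest library, 2.20 (adjusted p = 0.121). Ebf1, a factor of D1 neurons in the developing striatum, was at 0.861, 1.65 and 1.03 FPKM, less than the VTA mean of 1.72, and did not pass (0.96 ± 0.35, adjusted p = 0.131; 0.019 without mPFC 3).

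The promoter sequences of 3 genes that were higher than each other region or than every other library are shown because cyclic AMP, the messenger of these receptors, acts on genes through a known element. They are from the RefSeq promoter table (GRCm38.p6), 250 bases up to the start, 5′ to 3′ on the strand of the gene, and capitals mark the element TGACGTCA.
Drd2, chr9:49340153-49340402, plus strand: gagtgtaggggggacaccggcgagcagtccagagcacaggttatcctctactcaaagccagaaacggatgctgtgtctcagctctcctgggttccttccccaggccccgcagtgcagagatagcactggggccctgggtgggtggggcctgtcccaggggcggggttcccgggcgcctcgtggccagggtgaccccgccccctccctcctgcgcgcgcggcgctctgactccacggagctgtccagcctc
Gpr6, chr10:41072291-41072540, minus strand: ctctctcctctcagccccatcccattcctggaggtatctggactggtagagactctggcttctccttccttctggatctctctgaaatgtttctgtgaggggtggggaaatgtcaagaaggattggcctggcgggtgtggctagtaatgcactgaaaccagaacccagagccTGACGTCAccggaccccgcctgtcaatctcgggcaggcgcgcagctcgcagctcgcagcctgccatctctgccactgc
Rgs9, chr11:109298182-109298431, minus strand: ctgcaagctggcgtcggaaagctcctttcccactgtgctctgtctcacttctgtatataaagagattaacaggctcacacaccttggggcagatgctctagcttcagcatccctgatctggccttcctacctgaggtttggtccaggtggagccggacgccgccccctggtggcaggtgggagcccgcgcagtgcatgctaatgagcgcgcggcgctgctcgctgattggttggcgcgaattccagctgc
Of 11 genes looked up, chosen after their values were seen, 8 had an entry; Penk, Ppp1r1b and Adora2a had none. The motifs, searched on both strands, were the cyclic AMP response element TGACGTCA, its core TGACG, which is part of it, and the AP-1 motif TGANTCA. The full element was in 508 of 32851 promoters (1.55%), the core in 5836 (17.8%) and the AP-1 motif in 2217 (6.75%). Gpr6 held the full element, 78 bases before the start. Tac1 held the core alone, and Drd2, Rgs9 and Rarb held none of the motifs in this window. Drd1, Pdyn and Pde10a have 2 entries each, of which 1 was searched and held none; that of Pde10a lies 276373 bases from the 5′ end of the gene in the deposited table. A match is a run of letters and not a measured binding site.

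Transcription factors of the striatum followed, with lower levels. Of 23 tested, 14 were higher (background 4.72%) and none lower, 4 of them against each region (background 0.485%), with a median of 1.75; without NAc 1 the count was 13. Rarb, a retinoic acid receptor, was at 6.44, 6.29 and 13 FPKM in NAc and at most 0.925 FPKM elsewhere (log2 3.81 ± 0.21, adjusted p = 1.6e-07), and its locus overlaps Top2b on the other strand. Its partner Rxrg, a retinoid X receptor, was at 20, 14.5 and 30 FPKM, against at most 6.43 FPKM (2.67 ± 0.32, adjusted p = 0.00019). Both were higher than each region and did not overlap.

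Bcl11b, needed for spiny neurons to mature, was at 26.6, 19.7 and 27.5 FPKM, against means of 12.1 in vHippo, 11.6 in mPFC, 1.07 in VTA and 1.04 FPKM in LH. Its log2 difference was 2.77 ± 0.20 (adjusted p = 2.7e-06), but those from vHippo (1.0, adjusted p = 0.058) and mPFC (1.01, adjusted p = 0.0677) did not pass. Foxp1 (1.61 ± 0.23, adjusted p = 0.00075) had the same pattern, while Foxp2 (2.61 ± 0.26, adjusted p = 4.8e-05) passed against all but VTA. Meis2 was higher (2.28 ± 0.41, adjusted p = 0.00421), and so was Sp9, a factor of indirect pathway neurons (2.19 ± 0.29, adjusted p = 0.00041). Dlx6 passed too (2.61 ± 0.50, adjusted p = 0.00648), but not without NAc 3 (2.43, adjusted p = 0.0593), and it was 3.20 without VTA 2.

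A pair of these factors was no higher in NAc than in LH. Six3 was at 4.05, 7.38 and 8.13 FPKM in NAc, with means of 13.2 in LH, 0.4 in VTA, 0.0526 in vHippo and 0.0402 FPKM in mPFC. Isl1, a factor of direct pathway neurons, was at 1.29, 5.43 and 7.99 FPKM, with a mean of 8.68 in LH and at most 0.152 FPKM as the mean of another region. Both were called higher in the mean (Six3 4.28 ± 0.48, adjusted p = 0.00012; Isl1 3.97 ± 0.68, adjusted p = 0.00297), and neither differed detectably from LH (-1.0, adjusted p = 0.424; -0.83, adjusted p = 0.682).

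Of 17 retinoid signalling genes, 5 were higher (29.4%, background 4.72%) and 1 lower (5.88%, background 1.77%). Their median of 0.17 lay close to that of all tested genes, 0.024. Rarb and Rxrg were among the 5. Crabp1, a carrier of retinoic acid, was at 1.89, 3.93 and 3.04 FPKM, above the 1.76 FPKM of the highest other library (3.18 ± 0.70, adjusted p = 0.0152, but 0.0738 without NAc 2 and 0.0857 without NAc 3). Aldh1a3, an enzyme that makes retinoic acid, was the lower one, at 0.0711, 0.0277 and 0.0667 FPKM, below the 0.14 FPKM of the lowest other library (-2.67 ± 0.40, adjusted p = 0.00108). Without NAc 3 the list held 2 higher members.

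Of 8 opioid peptide and receptor genes tested, Penk, Pdyn and Oprk1 were higher (background 4.72%) and none was lower (background 1.77%), with a median of 1.07. Pdyn, the dynorphin precursor, was at 39.4, 47.4 and 84.7 FPKM in NAc, above the 24.1 FPKM of the highest other library, in LH (log2 3.98 ± 0.46, adjusted p = 0.00013); the difference from LH itself was 2.24 (adjusted p = 0.0684). Oprk1, the dynorphin receptor, was at 8.08, 3.60 and 7.31 FPKM, overlapping VTA and LH, whose means were 3.26 and 3.18 FPKM (2.13 ± 0.33, adjusted p = 0.00149). Oprm1, the mu receptor, was lowly measured, at 0.352, 0.452 and 0.403 FPKM, above the 0.299 FPKM of the highest other library, but did not pass (1.51 ± 0.48, adjusted p = 0.0826; 0.0425 without mPFC 3). Oprd1, the delta receptor, stood at 3.12 ± 0.848 FPKM (SD, n = 3), with 4.09 as the mean of mPFC (0.63 ± 0.26, adjusted p = 0.177).

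Of the remaining members, Oprl1, the nociceptin receptor, was at 8.57, 14.9 and 9.38 FPKM, within the range of the others (-0.37 ± 0.18, adjusted p = 0.268). Pnoc, the nociceptin precursor, was at 1.5, 4.71 and 1.83 FPKM and had means of 9.13 in LH and 6.20 FPKM in VTA. Its mean difference was -0.65 ± 0.33 (adjusted p = 0.279), but -1.29 without NAc 2, its highest library (adjusted p = 0.0359). Pomc was at 0.22 to 0.311 FPKM in NAc, within the range of the other libraries (-0.33 ± 0.44, adjusted p = 0.734).

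Among 23 other neuropeptide precursors, Tac1, Nts, Npy and Crh were higher (background 4.72%) and Grp was lower (background 1.77%), with a median of 0.34. Nts, neurotensin, was at 5.44, 26.1 and 30.8 FPKM in NAc and at most 19.4 FPKM elsewhere, so NAc 1 lay inside the range of the others (2.85 ± 0.43, adjusted p = 0.00127; 3.27 without NAc 1). Npy was at 53.1, 30.7 and 25.1 FPKM, with a mean of 40.3 FPKM in mPFC (1.83 ± 0.48, adjusted p = 0.0351), and the call ended without any 1 of the NAc or vHippo libraries, mPFC 1, mPFC 2, LH 1 or VTA 3; without NAc 1 the difference was 1.36 (adjusted p = 0.191). Crh was at 0.851, 13.5 and 4.33 FPKM (1.93 ± 0.54, adjusted p = 0.048); without NAc 2 it was 0.69 (adjusted p = 0.616), and the call held only without NAc 1 or LH 2. Without NAc 1, 3 precursors were higher and 2 lower. The count of higher precursors was 1 without NAc 3 and 2 without any of several other libraries.

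Of 16 genes of the ventral as opposed to the dorsal striatum, 6 were higher (background 4.72%) and none lower (background 1.77%), with a median of 1.3. None was above each of the 4 regions (background 0.485%). Without NAc 1, 7 were higher and the median was 1.61, and without NAc 3, 4 were higher. Drd3, the D3 receptor of the ventral striatum, was at 1.02, 1.73 and 2.50 FPKM in NAc and at 0, 0.0419 and 0.623 FPKM elsewhere, without overlap (4.93 ± 0.84, adjusted p = 0.00303). The differences from VTA (3.42, adjusted p = 0.0921) and LH (2.70, adjusted p = 0.218) did not pass, and the mean difference was 5.97 without mPFC 3 and 5.77 without vHippo 2. Wfs1, a membrane protein of the endoplasmic reticulum, was at 31.1, 89.3 and 70.8 FPKM, with 30.3 FPKM as the highest other value (2.05 ± 0.27, adjusted p = 0.00035). Crym, which binds thyroid hormone, was at 17.2, 32.7 and 48.8 FPKM, with 66.5 FPKM as the mean of vHippo and 24.6 of mPFC, and under 0.2 FPKM as the means of VTA (0.0707) and LH (0.14). It was called in the mean (3.94 ± 0.44, adjusted p = 0.00011), and only its differences from VTA and LH passed.

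Interneurons of the striatum were measured through 17 genes, with a median of 1.69. Of these, 6 were higher (background 4.72%) and none lower (background 1.77%). Without NAc 1, 5 were higher and 1 lower. Without NAc 2, 3 were higher and 1 lower, and without NAc 3, 1 was higher. The cholinergic genes Chat, which makes acetylcholine, and Slc5a7, which takes up choline, were at 0.82, 2.53 and 3.15 FPKM and at 2.36, 5.84 and 6.77 FPKM in NAc. Both overlapped LH, where the highest libraries held 3.60 and 7.29 FPKM. Their log2 differences were 4.42 ± 0.89 (adjusted p = 0.0091) and 2.86 ± 0.61 (adjusted p = 0.0126); without NAc 3 they were 4.05 (adjusted p = 0.0679) and 2.58 (adjusted p = 0.101). Without LH 1 they were 5.33 and 3.5, and without vHippo 1 Chat was 5.50. Lhx8, a factor of cholinergic neurons, was at 0.887, 9.34 and 4.51 FPKM in NAc and listed at 0 as the mean of vHippo, VTA and mPFC, with 1.12 FPKM in LH. Pvalb, parvalbumin, was at 6.23, 3.34 and 1.21 FPKM against 4.25 to 243 FPKM elsewhere (-2.95 ± 0.99, adjusted p = 0.0966; 0.0285 without LH 3).

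**Figure D3:**
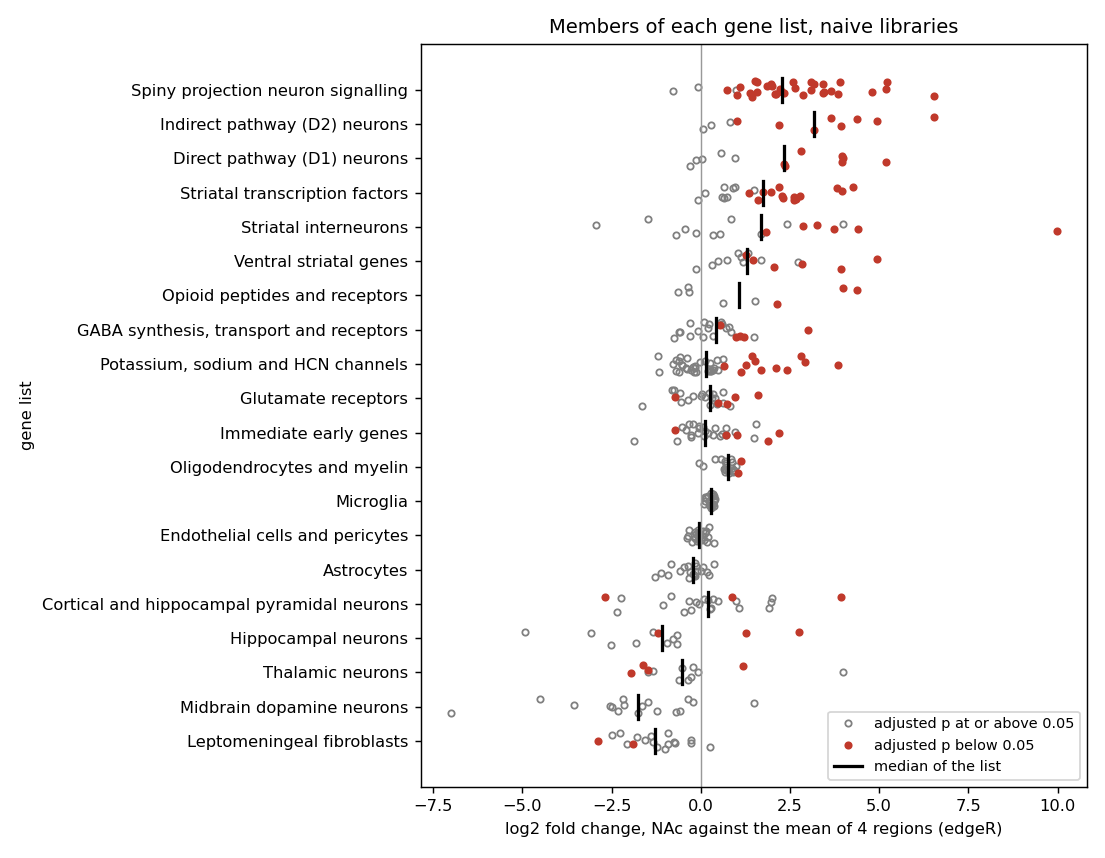
Log2 fold change of NAc against the mean of 4 regions for each tested member of 20 gene lists; filled points have an adjusted p below 0.05, open points do not, and the bar is the median of the list. The spiny neuron lists lie to the right of 0 with most points filled, while the astrocyte, microglia and endothelial lists have no filled point. The oligodendrocyte list has a median of 0.75 with 2 points filled. Fitted values of genes at or near 0 in a region, such as the interneuron gene near 10, depend on the prior count.

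GABA genes rose in part. Of 22, 5 were higher (background 4.72%) and none lower (background 1.77%), with a median of 0.43. Without NAc 1, 5 were higher and 1 lower. Gad2, which makes GABA, was at 77.5, 144 and 143 FPKM (1.21 ± 0.20, adjusted p = 0.00275), and Slc32a1, which loads it into vesicles, at 40.9, 70.4 and 65.2 FPKM (0.98 ± 0.17, adjusted p = 0.0034). For both the other regions reached higher single values, and LH had the highest means, 146 FPKM for Gad2 and 74.7 FPKM for Slc32a1. Each passed against vHippo, VTA and mPFC but not LH. Gad1, the other enzyme, was at 65.3, 81.9 and 75.3 FPKM, with 112 FPKM as the mean of LH, and did not pass (0.60 ± 0.28, adjusted p = 0.244). Gabrd, the delta subunit of receptors outside the synapse, was at 22.0, 14.9 and 23.6 FPKM, against at most 12.5 FPKM (3.01 ± 0.55, adjusted p = 0.00468), and passed on its own only against VTA (6.88), where the mean was 0.17 FPKM. Without NAc 3 the list held 3 higher members.

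Of 24 glutamate receptor genes 4 were higher (background 4.72%) and 1 was lower (background 1.77%), with a median of 0.25. Grm4, a presynaptic metabotropic receptor, was at 8.41, 8.55 and 11.8 FPKM against at most 7.17 FPKM, and passed against each region (1.61 ± 0.14, adjusted p = 1.1e-05). Grm5, a postsynaptic one, was at 36.5, 36.1 and 46.1 FPKM and overlapped vHippo, with a mean of 37.4 FPKM, and a mPFC library at 37.6 FPKM (0.95 ± 0.14, adjusted p = 0.00103). Grin2d, an NMDA receptor subunit, was at 2.09, 4.83 and 2.48 FPKM, with 9.38 and 7.65 FPKM as the means of LH and VTA (-0.73 ± 0.18, adjusted p = 0.0274); the call ended without NAc 1 (-0.56, adjusted p = 0.106) and without NAc 3 (-0.58, adjusted p = 0.216). Without NAc 1 or without NAc 3 there were 2 higher members and no lower one.

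Of 42 potassium, sodium and HCN channel genes 11 were higher (background 4.72%) and none lower (background 1.77%), with a median of 0.16. Without NAc 1, 9 were higher and 4 lower, and without NAc 3, 7 were higher. Kcna5, a voltage-gated potassium channel, was at 5.92, 8.09 and 8.91 FPKM against at most 4.38 FPKM (2.80 ± 0.35, adjusted p = 0.00028). Kcnh4, another, was at 6.24, 5.82 and 7.88 FPKM against at most 4.59 FPKM (2.93 ± 0.37, adjusted p = 0.00032). Neither overlapped. Kcnip2, which modulates A-type channels, was at 40.6, 41.6 and 65.6 FPKM, with 55.6 FPKM as the mean of vHippo (2.11 ± 0.20, adjusted p = 2.8e-05). Kcnj4, an inward rectifier, was at 47.2, 25.7 and 44.1 FPKM, with 36.9 FPKM as the mean of mPFC (2.43 ± 0.49, adjusted p = 0.00831; 0.056 without NAc 3).

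Immediate early genes, which neurons induce within minutes of activity, were compared with the mean of the regions and with each region. Of 29, 4 were higher (background 4.72%) and 1 was lower (background 1.77%) in the mean, with a median of 0.11. Without NAc 1 the counts were 4 and 2, and without NAc 3 they were 1 and 0. Against VTA 13 were higher (background 8.24%) and none lower, and against LH 10 were higher (background 4.9%). Against mPFC 4 were lower (background 1.77%) and none higher, and against vHippo 3 were lower (background 2.94%) and none higher. Egr3 was at 20.2, 19.7 and 26.5 FPKM in NAc, with means of 31.6 in mPFC, 20.5 in vHippo, 1.25 in LH and 0.644 FPKM in VTA (2.18 ± 0.26, adjusted p = 0.00016). Egr2 had the same order, with 3.9 FPKM in mPFC, 2.37 in NAc and 0.132 in VTA (1.89 ± 0.40, adjusted p = 0.0117; 1.48 and 0.162 without NAc 3).

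Some of the highest genes belong to no list. By the rule of largest difference without overlap, Serpina9, a protease inhibitor known from B cells, was at 8.11, 5.47 and 11.8 FPKM in NAc and at 0, 0.0593 and 0.4 FPKM elsewhere (6.55 ± 0.68, adjusted p = 6.4e-05; 7.30 without mPFC 3). Cd4, known as the T cell co-receptor, was at 7.13, 3.71 and 5.96 FPKM, against 0, 0.0741 and 0.18 FPKM (6.42 ± 0.58, adjusted p = 1.7e-05). Both were higher than each region. Of other T cell genes, chosen after seeing this, Cd3d, Cd3e, Cd3g and Cd8a had 0 counts in all 3 NAc libraries. Lck was at 0.378, 0.744 and 0.838 FPKM in NAc and at 0.126 to 0.714 FPKM elsewhere, so that NAc 2 and NAc 3 lay above every other library. The part of T cells in the level of Cd4 was not tested. Serpina9 overlaps a predicted gene.

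Ankrd63, an ankyrin repeat protein, was at 20.3, 18.6 and 26.0 FPKM against at most 7.30 FPKM (5.35 ± 0.37, adjusted p = 2e-06; 6.77 without VTA 1), and its difference from mPFC did not pass (1.88, adjusted p = 0.0625). Sh3rf2, which lay under the level set for naming and was chosen after its value was seen, was at 2.50, 3.36 and 4.94 FPKM, against 0, 0.0244 and 0.0843 FPKM (7.12 ± 0.73, adjusted p = 5.2e-05; 8.43 without LH 2). Strip2, a subunit of a phosphatase complex also chosen after seeing the values, was at 21.8, 21.3 and 38.7 FPKM against at most 4.51 FPKM and passed against all 4 regions (3.24 ± 0.23, adjusted p = 2e-06).

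Fewer genes were low in NAc. Those named here and below by the rule of largest difference had to be free of overlap in depth-scaled counts. Their lack of overlap is therefore no separate result. Grp, gastrin-releasing peptide, was at 0.138, 0.165 and 0.0616 FPKM in NAc and at 0.264, 3.59 and 22.1 FPKM elsewhere, with the highest mean, 14.6 FPKM, in vHippo. Its log2 difference was -5.09 ± 0.63 (adjusted p = 0.00024), and it was lower than each region. Vgll3, a transcription cofactor, was at 0.0701, 0.17 and 0.0944 FPKM, just below the 0.175 FPKM of the lowest other library, and vHippo held 9.59 FPKM as its mean (-3.30 ± 0.54, adjusted p = 0.00231). Rnf182, a ubiquitin ligase, was at 1.15, 1.36 and 0.696 FPKM against 1.45 to 11.6 FPKM, and again vHippo was highest (-1.69 ± 0.25, adjusted p = 0.00106).

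S100a10, an annexin partner that carries receptors to the membrane, was even across NAc libraries, at 2.63, 2.87 and 2.93 FPKM, and at 4.66, 8.57 and 12.5 FPKM elsewhere (-1.55 ± 0.17, adjusted p = 0.0001). Its neighbour S100a11 was at 1.38, 1.22 and 2.34 FPKM against at least 2.94 FPKM (-1.67 ± 0.32, adjusted p = 0.00611). Neither overlapped; S100a10 was lower than each region, and S100a11 missed the threshold against LH (-1.20, adjusted p = 0.0594). Hsd11b1, which regenerates active glucocorticoid and was chosen after its value was seen, was at 0.614, 0.469 and 0.68 FPKM, below the 0.897 FPKM of the lowest other library (-2.57 ± 0.34, adjusted p = 0.00039). It was lower than each region, by 1.78 (mPFC) to 2.98 (VTA) on the log2 scale, and overlaps other annotated genes. Met, the receptor of hepatocyte growth factor, likewise chosen later, was at 0.0921, 0.111 and 0.0924 FPKM against 0.116 to 2.16 FPKM (-2.82 ± 0.48, adjusted p = 0.00295).

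Tspan17, a tetraspanin (-1.40 ± 0.24, adjusted p = 0.0032), Kcnc4, a fast potassium channel outside the channel list (-1.21 ± 0.26, adjusted p = 0.0119), and Napepld, which makes acylethanolamides such as anandamide (-1.34 ± 0.23, adjusted p = 0.00349), were lower than each region without overlap. Cav2, a caveolin, was at 5.65, 4.53 and 3.68 FPKM against at least 6.72 FPKM, and was lower than each as well (-1.12 ± 0.21, adjusted p = 0.00502). Lsm11, of the machinery of histone mRNA ends, was also lower than each (-1.45 ± 0.21, adjusted p = 0.00106), but its FPKM values overlapped. Tafa1, a secreted brain protein, fell by 2.01 ± 0.32 (adjusted p = 0.0017) and differed from every region but LH. Cdk14, a cyclin-dependent kinase, was lower (-1.47 ± 0.29, adjusted p = 0.0072) but not without NAc 3 (-1.19, adjusted p = 0.056). Dcn, a matrix proteoglycan of fibroblasts, was at 0.288, 0.904 and 0.815 FPKM and had a mean of 26.3 FPKM in vHippo (-2.89 ± 0.64, adjusted p = 0.0149; 0.06 without NAc 1 and 0.0842 without NAc 3). The count of 33 genes below each region fell to between 11 and 21 without any 1 of 10 libraries, to 5 without NAc 3, and was 75 without NAc 1.

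Called genes differed in which regions they stood above. Of the 1079 higher genes, 111 (10.3%) passed on their own against all 4 regions, 176 (16.3%) against 3, 545 (50.5%) against 2, 204 (18.9%) against 1 and 43 (3.99%) against none. The commonest pattern was VTA and LH without the others, 395 genes (36.6%), which included Chrm1, Chrm4, Crym and Egr3. The pattern of vHippo and mPFC alone held 85 genes (7.88%). Of the 405 lower genes, 137 (33.8%) were lower than VTA and LH alone and 54 (13.3%) lower than vHippo and mPFC alone.

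Myelin genes were compared with each region in turn. Of 23 oligodendrocyte and myelin genes, 21 were higher than in vHippo (background 3.76%) and 21 higher than in mPFC (background 2.8%). Lower than in VTA were 4 (background 6.64%), and lower than in LH was 1 (background 3.06%). In the mean of 4 regions Mal and Opalin were higher (background 4.72%) and the median was 0.75. Without NAc 1, NAc 2 or vHippo 1 none was higher. Mal, a myelin proteolipid, was at 153, 198 and 99.7 FPKM in NAc, with means of 24.8 in vHippo, 25.2 in mPFC, 180 in LH and 184 FPKM in VTA. Its mean difference was 1.13 ± 0.28 (adjusted p = 0.027), but 0.0975 without NAc 1, 0.161 without NAc 2 and 0.0533 without vHippo 1.

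Markers of other glia and of vessels were compared with the mean of the regions and with each region. In the mean none of 20 astrocyte genes, 11 oligodendrocyte precursor genes, 19 microglia genes or 24 endothelial and pericyte genes passed with edgeR. An unadjusted p below 0.05 was found for 4, 5, 0 and 2 of them, and for 4802 of all 22877 genes tested. DESeq2 called 3 astrocyte genes lower, 1 precursor gene higher and 1 lower, and none of the others. Over all genes it called 1383 higher and 1216 lower. Leaving out any library in turn, edgeR called at most 2 astrocyte genes (lower, without NAc 2 or mPFC 3) and 1 precursor gene (without VTA 1 or mPFC 3). Against single regions, 7 astrocyte genes were lower than in VTA (background 6.64%) and 4 lower than in LH (background 3.06%). Higher were 2 against VTA (background 8.24%), 1 against mPFC (background 2.8%) and 1 against LH (background 4.9%). Of the precursor genes 3 were higher than in vHippo (background 3.76%) and 3 higher than in mPFC, and 1 was lower than in VTA. No microglia, endothelial or pericyte gene passed against any region. Of 18 leptomeningeal genes 2 were lower (background 1.77%), none without NAc 1 or without NAc 3, and DESeq2 called 5 lower. The median was -1.28. The summed leptomeningeal level was 12.9 to 16.3 FPKM in NAc and 41.2 to 79.2 FPKM in vHippo. The part of these cells in the difference of Dcn was not tested. For the remaining lists the background was again 4.72% higher and 1.77% lower. Of 28 receptor genes for dopamine, acetylcholine, adenosine, cannabinoids and serotonin, 10 were higher and 1 lower, with a median of 0.32. Without NAc 1 these counts were 8 and 2, and without NAc 3 they were 6 and 0. For septum and pallidum 3 of 12 were higher (4 without NAc 1). For neuroblasts 3 of 14 were higher and 1 lower (2 and 1 without NAc 1, 0 and 0 without NAc 2 or NAc 3). For choroid plexus 1 of 18 was higher (2 without NAc 1, 0 without NAc 2 or NAc 3). None of 5 red blood cell genes passed, at an unadjusted p below 0.05 or with DESeq2. None of 4 pancreas genes passed, with 1 at an unadjusted p below 0.05 and 1 called lower by DESeq2.

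Genes that mark neurons of the other regions or of the thalamus were compared with single regions and with the mean. Of 17 midbrain dopamine neuron genes 16 were lower than in VTA (background 6.64%), though none passed in the mean of 4 regions. In that mean 8 had an unadjusted p below 0.05, as did 4802 of all 22877 genes tested. DESeq2 called 7 of the 17 lower, and 1383 genes higher and 1216 lower over all genes. Without 1 library edgeR called 0 to 3 of the 17. Of 22 hypothalamic genes none passed in the mean, with edgeR, DESeq2 or at an unadjusted p below 0.05, and 5 were lower than in LH (background 3.06%). Of 13 thalamic genes 3 were lower (background 1.77%) and 1 higher (background 4.72%) in the mean. Without NAc 1, 2 were lower and 2 higher, and without NAc 3, 1 was lower and 0 higher. Against LH 9 thalamic genes were lower (background 3.06%) and 0 higher, and against VTA 3 were lower (background 6.64%) and 0 higher. Against vHippo 2 were lower (background 2.94%) and 2 higher (background 3.76%), and against mPFC 0 were lower and 1 higher (background 2.8%). Ntng1, an adhesion protein, was at 2.12, 2.64 and 2.12 FPKM and had means of 9.98 in VTA and 9.52 FPKM in LH (-1.49 ± 0.25, adjusted p = 0.00237), while mPFC, at 2.39 FPKM, did not differ detectably (-0.13, adjusted p = 0.879). Of 12 hippocampal genes 7 were lower than in vHippo (background 2.94%), with 2 higher (background 4.72%) and 1 lower (background 1.77%) in the mean. DESeq2 called 2 higher and 5 lower in the mean, and without 1 library edgeR called 1 to 2 higher and 0 to 2 lower.

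Of 23 pyramidal neuron genes 2 were higher (background 4.72%) and 1 lower (background 1.77%), with a median of 0.20. Without NAc 1, however, 2 were higher and 9 lower, with a median of -1.15. With all libraries, 5 were lower than in mPFC (background 1.77%) and 0 higher, and 4 were lower than in vHippo (background 2.94%) and 1 higher. Against VTA 7 were higher (background 8.24%) and 2 lower, and against LH 4 were higher (background 4.9%) and 0 lower. Slc17a7, the vesicular glutamate transporter of cortical neurons, was at 180, 0.507 and 3.54 FPKM in the 3 naive NAc libraries, and at 67.4, 63.1 and 1.45 FPKM in the 3 CRS ones. Neurod6, a factor of pyramidal neurons, was at 26.5, 0.0495 and 0.579 FPKM, and its mean difference turned from 0.20 ± 0.93 (adjusted p = 0.942) to -4.79 (adjusted p = 0.00268) without NAc 1. NAc 1 was thus the high library for these genes and low for Nts, Isl1 and Lhx8. The difference of Bhlhe22, another factor of pyramidal neurons, at 1.70, 0.711 and 0.516 FPKM, was called with and without NAc 1 (-2.68 ± 0.43, adjusted p = 0.00194; -3.45 without it).

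**Figure D4:**
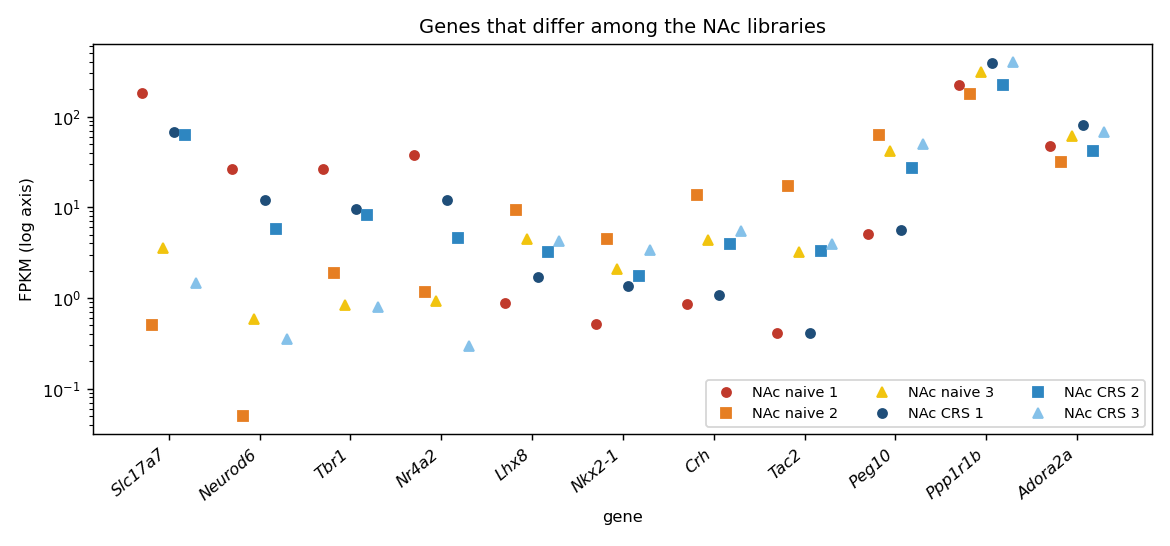
FPKM on a log axis of 11 genes in the 3 naive and the 3 CRS libraries of NAc, 1 symbol per library. Slc17a7, Neurod6, Tbr1 and Nr4a2 are highest in naive NAc 1 and Lhx8, Crh and Tac2 in naive NAc 2, whereas Ppp1r1b and Adora2a lie close together in all 6.

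The same contrast was made in the 15 CRS libraries of the 5 regions, which the naive comparison did not use. There, 1656 of 22558 genes (7.34%) were higher and 1076 (4.77%) lower in NAc. Without NAc CRS 1 the counts were 959 and 393, and without NAc CRS 3 they were 973 and 442. Of 1077 genes higher in naive NAc and tested in CRS, 839 (77.9%) were called higher again, which is 51.2% of the 1640 higher CRS genes tested in both. Of 404 lower genes 277 (68.6%) were called lower again, 25.7% of the 1076 lower CRS genes. Of the 111 genes above each region 108 (97.3%) were higher in CRS, against 7.34% of all genes. Of the 33 below each 28 (84.8%) were lower in CRS, against 4.77% of all genes. The sign was the same in both sets for 75.3% of 21927 genes.

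In CRS 33 of the 35 spiny neuron signalling genes were higher (background 7.34%), with a median of 2.92 (2.27 in naive). Medians were also high for the direct pathway (2.64), indirect pathway (3.54) and transcription factor lists (2.20). Some other lists changed sign. The median of 23 other neuropeptide precursors was -0.56 (0.34 in naive), with 2 higher and 3 lower (background 4.77%). That of 23 hypothalamic genes was -1.78 (0.37 in naive), with 0 higher and 3 lower. Of 8 opioid genes 3 were higher and 2 lower. Penk was at 498, 347 and 705 FPKM in the CRS NAc libraries (log2 4.50 against the CRS regions, adjusted p = 3.8e-07), Ppp1r1b at 387, 225 and 403 FPKM (5.36, adjusted p = 5.3e-09) and Drd1 at 62.0, 37.2 and 52.9 FPKM (5.62, adjusted p = 5.8e-09). Ranges of naive and CRS libraries overlapped for all 3. Aldh1a3 (-0.81, adjusted p = 0.575), S100a11 (-0.13, adjusted p = 0.9) and Crh (0.69, adjusted p = 0.287) did not pass in CRS. The difference between both contrasts, tested as an interaction over 30 libraries and 24244 genes, was called for no gene with edgeR (smallest adjusted p = 0.156, with 817 genes at an unadjusted p below 0.05), and for 63 genes with DESeq2 (0.26%, 49 higher and 14 lower in CRS).

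**Figure D5:**
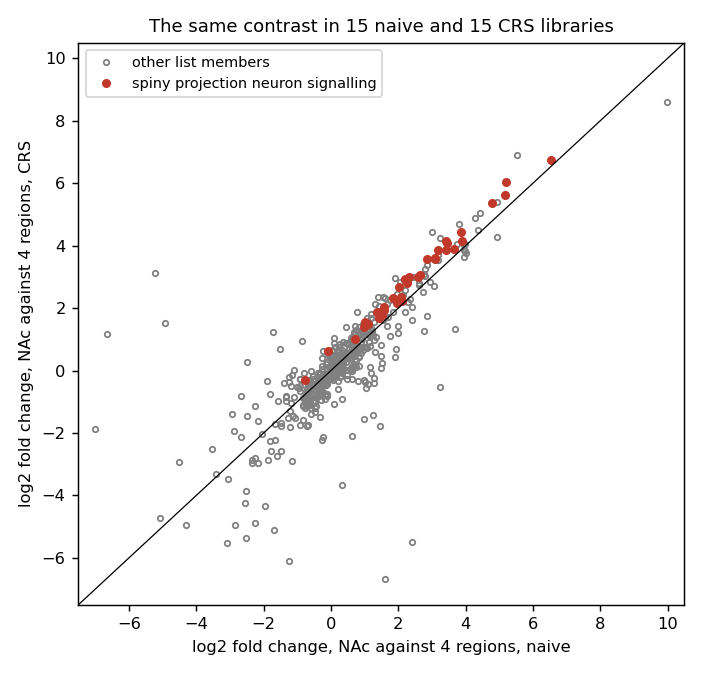
Log2 fold change of NAc against the mean of the 4 other regions for each list member tested in both sets, in 15 naive libraries (x axis) and 15 CRS libraries (y axis); the line marks equal values. The spiny neuron signalling genes, filled, lie along the line or slightly above it, and the points far below 0 on either axis are genes of other lists.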

How the data were processed

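Whole-number counts and FPKM per gene were deposited by the authors in a table of 40905 genes and 30 libraries of 5 regions, per the file headers. Cutadapt 1.9, HISAT2 2.0.4, StringTie 1.3.4d and edgeR were used, per the submitters' processing notes; how counts were taken is not given in the sources used here. The notes name GRCm39, but 99.519% of 40748 matched gene starts equalled GRCm38. Columns that could be tied to no sample (18 with counts) were set aside, and the lateral habenula table was not analysed here. The 15 naive libraries were fitted with 5 group means by the quasi-likelihood method of edgeR (version 4.0.16, R 4.3.3). Genes were kept by filterByExpr, libraries scaled by TMM, and two-sided p-values adjusted after Benjamini and Hochberg over all genes tested, with a threshold of 0.05. All adjusted p-values are from this test. The ± after a log2 difference is an approximate SE, the size of the difference divided by the square root of the F statistic. DESeq2 1.42.0 and limma 3.58.1 were alternatives. FPKM values describe levels. The 30 FPKM columns each correlated best with their own count column, and no pair of libraries of a group was a copy (chi-square per degree of freedom 25.2 to 386). On simulated data for the naive contrast with 22044 genes, 6, 28, 44 and 48 of 50 genes changed by 1.5, 2, 3 and 4-fold were recovered, with 8 false calls. There each gene had the same mean in all regions apart from the changes set in NAc. The real regions differ from each other, so the 8 false calls do not measure the error of the real contrast. The 30 gene lists, the rule for naming genes and the genes shown were chosen with earlier results of these data known. Genes were named from the lists by smallest p (up to 4 a list) or, for spiny neuron signalling, both pathways, transcription factors and opioids, as any member, and beyond them, among genes whose NAc libraries did not overlap the others in depth-scaled counts and with a mean of at least 5 FPKM where high, the 8 of largest difference per direction, both in the mean and against each region. Crh, Crabp1, Pvalb, Gad1, Kcnj4, Neurod6, Slc17a7 and Tac2 lie outside this rule and were chosen after their values were seen, as were the genes said to be so in the text. Some genes that the rule names are not reported here.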

Additional observations from a re-analysis of the deposited data

How the results depend on the processing

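With the 12 other libraries as a single group, 189 genes were higher and 43 lower in the naive comparison. DESeq2 gave 1216 lower genes in naive and 1753 in CRS, 174 higher and 104 lower than each region, and 49 higher and 14 lower for the interaction; it gave no adjusted p for 2322 genes. Without NAc 1 and VTA 2 together 657 were lower and 80 lower than each region, without mPFC in the mean 935 were lower, and with no filter 16 were lower than each. Leaving out 1 library in turn gave 416 to 1255 higher and 60 to 571 lower genes, 43 to 114 above and 5 to 75 below each region, 959 to 2149 and 393 to 1572 in CRS, and 0 to 0 and 0 to 1 for the interaction. The causes were not tested, beyond the fewer samples of each such fit. Without NAc 3, 411 higher and 57 lower genes were shared with the full set. Neurod6 was -1.72 with limma on log2(FPKM + 1), -1.80 with the others as 1 group, -0.47 with the replicate block, -1.27 without LH and -0.31 without VTA in the mean, -4.79 to 0.78 without 1 library in turn (lowest without NAc 1) and -4.70 without NAc 1 and VTA 2. Deviations of same-numbered libraries from their group means correlated at r from -0.149 to 0.132 over 30 pairs. Pairs with different numbers gave r from -0.16 to 0.218 over 60 pairs. With 3 libraries a group, some of them far apart, this cannot show whether same-numbered libraries share mice. The replicate block gave 992 higher and 401 lower genes, 938 and 340 of them shared. Over 98 named genes, 87 of them called, and 28 alternatives, 2582 of 2742 values kept direction and side of the threshold, 127 lost the call, 26 gained it and 7 (all Neurod6) changed sign. The losses were uneven: with the other libraries as 1 group 49 of the 87 lost the call, and without NAc 3, 14 did. Many of these genes were named for a small p or for groups that did not overlap.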
